A study of Mus musculus with 3 samples.

Results

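The 10 genes that form the core of the integrated stress response were followed through primary mouse hepatocytes treated with tauroursodeoxycholic acid (TUDCA). They were chosen by symbol, with earlier results of these data known. They are Atf4, Atf5, Atf3, Ddit3, Ppp1r15a, Ppp1r15b, Trib3, Chac1, Nupr1 and Eif4ebp1, and all 10 were found among the 37620 Ensembl gene identifiers of each table. RNA-seq libraries came from hepatocytes of C57BL/6 mice, 2 from cells given TUDCA at a labelled 100 mM for 24 h and 1 from cells given DMSO, for which the labels state no time. The unit of the dose is the labels' own and could not be checked here. All cultures were labelled passage 1, were plated on gelatin and received serum and insulin. TUDCA, a taurine-conjugated bile acid, serves as a chemical chaperone, and DMSO is a solvent. The series design speaks of 2 independent experiments without saying which library belongs to which. Age and sex are not stated in the labels, nor is whether the libraries share a mouse, so what separates the TUDCA libraries may be technical. Culture or time may differ between the groups too, and with 1 DMSO library this and TUDCA cannot be told apart.

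In the integrated stress response, kinases that sense unfolded protein in the endoplasmic reticulum (ER), amino acid shortage, viral RNA or haem shortage phosphorylate the translation factor eIF2-alpha. Bulk protein synthesis then falls while a few mRNAs, that of the transcription factor ATF4 among them, are translated better. ATF4 switches on CHOP (Ddit3) and a set of stress genes, and GADD34 (Ppp1r15a), one of its targets, brings the phosphatase that reverses the signal. ATF4 is thus governed largely at translation, which mRNA levels do not show.

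Both TUDCA libraries had lower values than the DMSO library for 9 of the 10 genes, where 30.4% of all 11300 genes tested lay below DMSO in both. Of the 10, Ppp1r15a and Ddit3 passed the test as lower (limma adjusted p = 1.68e-05 and 0.00304), none passed as higher, and 8 did not pass. Across all genes tested, 2.65% were called, 0.876% as lower and 1.77% as higher. Atf4, at the head of the pathway, stood close to DMSO, and Ppp1r15b was the gene whose TUDCA values lay on either side of it. The median log2 difference of the 10 genes was -0.54, against 0.04 over all genes tested, and it was -0.62 in TUDCA replicate 1 and -0.43 in TUDCA replicate 2. Both TUDCA libraries are set against the same DMSO library, so their differences are not independent.

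Values are RPKM, reads scaled to gene length and library size. Fold differences are log2(RPKM + 1) of TUDCA minus DMSO, with standard errors (SE) from limma, a linear model fitted to all genes that averaged 1 RPKM or more, and a gene was called at an adjusted p under 0.05. All 10 genes passed that filter. The only replicate information came from the pair of TUDCA libraries, pooled over genes of like expression, and DMSO, with its single library, was taken to have the same spread. Without the filter on low values no gene of 19146 was called (1696 had an unadjusted limma p under 0.05). Ppp1r15a and Ddit3 then had limma adjusted p = 0.560 and 0.502. In that fit spread was pooled over genes far less, with 1.11 prior degrees of freedom in place of an infinite number. Reads are worth 0.0946 to 0.1025 RPKM per kilobase with TUDCA and 0.0928 in DMSO, at totals of 9757547 and 10575699 reads for TUDCA replicates 1 and 2 and 10774289 for DMSO. Each of the 10 genes rested on at least 139 reads in every library, as the smallest whole numbers that give its RPKM values, and the true numbers may be whole multiples of these.

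The cultures carried hepatocyte transcripts, with 0 of 10 markers averaging under 1 RPKM and a summed level of 15222 and 13253 RPKM with TUDCA, against 11861 RPKM in DMSO. Fgb (fibrinogen) and the liver transcription factor Hnf4a were the 2 markers of 10 called higher, against 1.77% of all genes tested. Kupffer cell and macrophage markers summed to 214 and 226 RPKM with TUDCA, against 232 RPKM in DMSO, mostly Cd68 (154 and 169 RPKM with TUDCA, 170.4 RPKM in DMSO). Of the 8 tested 0 were called, against 2.65% of all genes tested, and 5 lay above DMSO in both TUDCA libraries and 3 below. Their median log2 difference was 0.22. Endothelial markers summed to 9.32 and 9.19 RPKM with TUDCA, against 9.16 RPKM in DMSO. Stellate cell and fibroblast markers summed to 7.98 and 6.92 RPKM with TUDCA, against 8.55 RPKM in DMSO. Only 3 of 8 endothelial and 5 of 8 stellate cell and fibroblast markers were tested, and 0 were called. With so few tested, 0 calls cannot show that these cell types were unchanged. Cholangiocyte markers summed to 821 and 648 RPKM with TUDCA and 437 RPKM in DMSO, mostly Spp1, which was called higher, with Cftr at 0. Keratinocyte markers summed to 17.1 and 16.4 RPKM with TUDCA and 31.4 RPKM in DMSO. Krt5, with 15.5 and 14.5 RPKM with TUDCA and 29.5 RPKM in DMSO, made up most of this and was called lower, while Krt14, Krt1, Krt15, Trp63 and Krtdap, 5 of the 8 markers, were at 0 in all 3 libraries. The part of these shifts in the lower stress genes was not tested, and in bulk RNA fewer cells of a type cannot be told apart from less RNA per cell.

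Letters bound by factors of the pathway were searched for in the DNA before the genes' starts. ATF4 binds, as a dimer with C/EBP proteins, to a C/EBP-ATF response element, searched here as TGATGNAA on both strands. The cyclic AMP response element (CRE), bound by CREB and ATF factors, was searched as TGACGTCA, which reads alike on both strands. The ER stress element, bound by ATF6 with NF-Y, was searched on both strands as CCAAT and CCACG with 9 bases between them. RefSeq (GRCm38.p6) gave the 250 bases before a start for 8 of the 10 genes. The C/EBP-ATF element was found for Atf3, Chac1 and Nupr1, where 3.45% of the 32851 RefSeq promoters searched hold it in that length. The CRE was found for Ppp1r15a, against 1.55% of promoters, and the ER stress element for none of the 8, against 0.113%. Each of these 4 promoters held 1 match, so no matches overlap. The rest of the 8, Ddit3 among them, held none in these 250 bases, and sequence outside that window was not searched. The 4 promoters with a match and that of Ddit3, the other gene called, are shown 5′ to 3′ up to the base before the start, with the matches in capitals.

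Atf3, chr1:191183334-191183583, minus strand: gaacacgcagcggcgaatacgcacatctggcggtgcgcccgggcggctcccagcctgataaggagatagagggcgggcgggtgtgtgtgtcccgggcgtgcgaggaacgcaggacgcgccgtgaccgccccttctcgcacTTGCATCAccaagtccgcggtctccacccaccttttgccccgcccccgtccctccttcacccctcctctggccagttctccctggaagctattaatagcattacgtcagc
Chac1, chr2:119350992-119351241, plus strand: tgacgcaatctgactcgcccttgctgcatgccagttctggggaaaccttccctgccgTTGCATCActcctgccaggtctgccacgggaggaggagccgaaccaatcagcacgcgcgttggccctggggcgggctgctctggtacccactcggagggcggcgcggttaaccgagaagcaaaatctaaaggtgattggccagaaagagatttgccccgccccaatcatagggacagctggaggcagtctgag
Nupr1, chr7:126625471-126625720, minus strand: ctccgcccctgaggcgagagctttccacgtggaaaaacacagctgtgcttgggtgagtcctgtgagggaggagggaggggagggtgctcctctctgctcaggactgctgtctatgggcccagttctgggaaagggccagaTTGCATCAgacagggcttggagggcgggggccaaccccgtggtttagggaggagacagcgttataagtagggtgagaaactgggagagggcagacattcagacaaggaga
Ppp1r15a, chr7:45526269-45526518, minus strand: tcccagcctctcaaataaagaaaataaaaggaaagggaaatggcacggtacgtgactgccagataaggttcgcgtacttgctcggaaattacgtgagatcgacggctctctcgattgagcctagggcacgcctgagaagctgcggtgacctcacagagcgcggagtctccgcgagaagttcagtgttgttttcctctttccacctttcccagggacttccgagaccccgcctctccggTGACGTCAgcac
Ddit3, chr10:127290543-127290792, plus strand: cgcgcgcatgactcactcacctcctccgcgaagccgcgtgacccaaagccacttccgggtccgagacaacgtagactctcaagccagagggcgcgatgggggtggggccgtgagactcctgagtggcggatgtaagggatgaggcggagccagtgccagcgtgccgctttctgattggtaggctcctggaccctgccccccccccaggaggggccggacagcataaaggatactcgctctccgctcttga

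Atf3, Chac1 and Nupr1 carry the same letters, TTGCATCA, the element read on the opposite strand. They start 110 bases before the RefSeq start in Atf3 and in Nupr1 and 193 bases before it in Chac1, and the CRE of Ppp1r15a starts 12 bases before it. The promoters of a single chromosome were left out of the search. Over genes tested whose promoter was searched, the median log2 difference was 0.02 for 212 with the C/EBP-ATF element and 0.04 for 8478 without. Of these, 4 with the element (1.89%) and 56 without it (0.661%) were called lower, and 35.9% and 30.5% lay below DMSO in both TUDCA libraries. The letters are a description of the window and no evidence of binding.

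**Figure D1:**
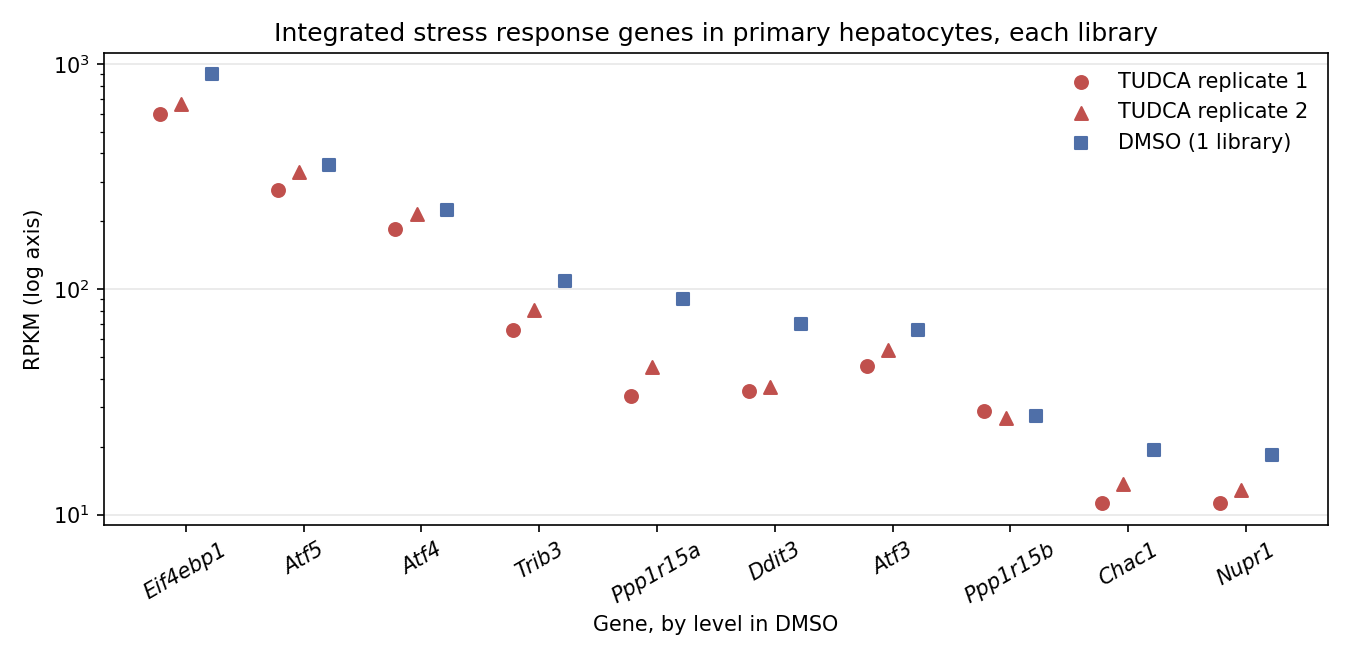
RPKM on a log axis (vertical) of each of the 10 genes (horizontal, by level in DMSO) in TUDCA replicate 1 (circles), TUDCA replicate 2 (triangles) and the single DMSO library (squares). The DMSO square is the highest mark for every gene but Ppp1r15b, and TUDCA replicate 1 is the lowest mark for those same 9 genes.

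All 4 transcription factors lay below DMSO in both TUDCA libraries, and Ddit3, which encodes CHOP, was the 1 of them that passed the test. Whether its difference exceeds those of the other 3 was not tested. Ddit3 (ENSMUSG00000025408), a bZIP factor that forms dimers with C/EBP proteins and promotes cell death when ER stress lasts, had 35.2 and 36.9 RPKM in TUDCA replicates 1 and 2, against 69.7 RPKM in DMSO. The TUDCA libraries lay close together and far below DMSO, whose distance to the nearer of them was 14.0 times the distance between them on the log2 scale. The log2 difference was -0.93 ± 0.23 (SE, limma adjusted p = 0.00304), and 0.584% of all genes tested had one at or below this. As ratios to DMSO the TUDCA libraries stood at 0.505 (95% counting interval 0.411 to 0.619) and 0.529 (0.434 to 0.643). These intervals, exact binomial ones on the smallest whole reads, cover counting error only. That of the ratio between the TUDCA libraries, 0.756 to 1.21, holds 1. The 14.0 thus rests on a gap within counting error and is an unsteady measure of how alike the libraries were.

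Atf4 (ENSMUSG00000042406), the activator of the response, had 184 and 215 RPKM in TUDCA replicates 1 and 2, against 225 RPKM in DMSO. Its TUDCA libraries differed from each other by more than the nearer one differed from DMSO, at 0.306 times that distance. The log2 difference was -0.18 ± 0.20 and did not pass (limma adjusted p = 0.880). The ratio of Ddit3 to Atf4 in RPKM, which is per length, was 0.191 and 0.172 with TUDCA and 0.310 in DMSO.

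Atf5 (ENSMUSG00000038539), a close relative of ATF4 that is abundant in liver, showed a pattern much like it. It had 275 and 332 RPKM with TUDCA and 355 RPKM in DMSO, a log2 difference of -0.23 ± 0.20 (limma adjusted p = 0.797). In each library it stood above Atf4, at 1.49 and 1.55 times its RPKM with TUDCA and 1.58 times in DMSO. The nearer TUDCA library was again closer to DMSO than to the other TUDCA library, at 0.352 times the distance between them.

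Atf3 (ENSMUSG00000026628), a stress-inducible bZIP factor that can repress its targets, had 45.5 and 53.6 RPKM with TUDCA, against 65.9 RPKM in DMSO. Both TUDCA libraries lay below DMSO, but the log2 difference of -0.41 ± 0.22 did not pass (limma adjusted p = 0.528). It is one of the 3 genes with the C/EBP-ATF element printed above.

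The subunits that direct a phosphatase to eIF2-alpha parted. Ppp1r15a (ENSMUSG00000040435), the inducible subunit GADD34, had 33.7 and 45.2 RPKM in TUDCA replicates 1 and 2, against 90.4 RPKM in DMSO. This was the lowest log2 difference of the 10 genes, -1.19 ± 0.22 (SE, limma adjusted p = 1.68e-05), with 36 of the 11300 genes tested, itself included, at or below it. The TUDCA libraries differed from each other by 0.41 on the log2 scale, and DMSO lay 2.39 times that distance above the nearer one. As ratios to DMSO they stood at 0.373 (counting interval 0.341 to 0.407) and 0.500 (0.462 to 0.540).

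Ppp1r15b (ENSMUSG00000046062), the constitutive subunit CReP, stayed near DMSO. It had 28.7 and 26.7 RPKM with TUDCA and 27.3 RPKM in DMSO, a log2 difference of 0.02 ± 0.24 (limma adjusted p = 0.995). Its sign was negative with quantile normalization, median centring and the corrections for length and GC content, so no direction can be given. The counting intervals of its ratio to DMSO, 0.973 to 1.13 and 0.905 to 1.05, both hold 1. Per length, the inducible subunit stood at 1.17 and 1.69 times the RPKM of the constitutive one with TUDCA and at 3.31 times in DMSO. Summed, both subunits had 62.4 and 71.9 RPKM with TUDCA and 118 RPKM in DMSO.

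The downstream genes stood between these extremes, and none of them passed. Trib3 (ENSMUSG00000032715), a pseudokinase that is induced by ATF4 and CHOP and restrains them, had 65.7 and 81.0 RPKM with TUDCA, against 109 RPKM in DMSO. Its log2 difference was -0.57 ± 0.21 (limma adjusted p = 0.164), and DMSO lay 1.42 times the distance between the TUDCA libraries above the nearer one. Chac1 (ENSMUSG00000027313), an enzyme that degrades glutathione, had 11.2 and 13.7 RPKM with TUDCA, against 19.3 RPKM in DMSO. Nupr1 (ENSMUSG00000030717), a small nuclear stress protein, had 11.2 and 12.8 RPKM with TUDCA, against 18.3 RPKM in DMSO. Both carry the element shown above, were the 2 lowest of the 10 genes in RPKM, and had log2 differences of -0.60 ± 0.26 and -0.57 ± 0.26 (limma adjusted p = 0.313 and 0.374).

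Eif4ebp1 (ENSMUSG00000031490) encodes 4E-BP1, which holds back cap-dependent translation and is a target of ATF4 in pancreatic beta cells of mice. It was the most abundant of the 10 genes, with 599 and 663 RPKM with TUDCA, against 897 RPKM in DMSO. In DMSO it ranked 103 from the top of all genes tested in RPKM. The TUDCA libraries lay close together, with DMSO 3.01 times their distance above the nearer one, and the log2 difference was -0.51 ± 0.20 (limma adjusted p = 0.184). Quantile normalization called it lower (limma adjusted p = 0.0364), while the other 11 alternative settings with a test did not.

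Reading the genes one by one, 6 of the 10 had an unadjusted limma p under 0.05 and a lower level, against 4.19% of all genes tested. Because the 10 were chosen with earlier results of these data known, the counts here and above are descriptions and no test of the set. None of the 10 reached a 2-fold fall on the log2(RPKM + 1) scale in both TUDCA libraries, which 0.283% of genes tested did, though Ppp1r15a (-1.40 and -0.98) and Ddit3 (-0.96 and -0.90) came near. The counting interval of the ratio to DMSO lay below 1 for 9 genes in TUDCA replicate 1 and for 9 in TUDCA replicate 2, against 22.6% and 20.5% of genes tested. Counting intervals leave out the spread between libraries, on which the limma p-values rest.

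**Figure D2:**
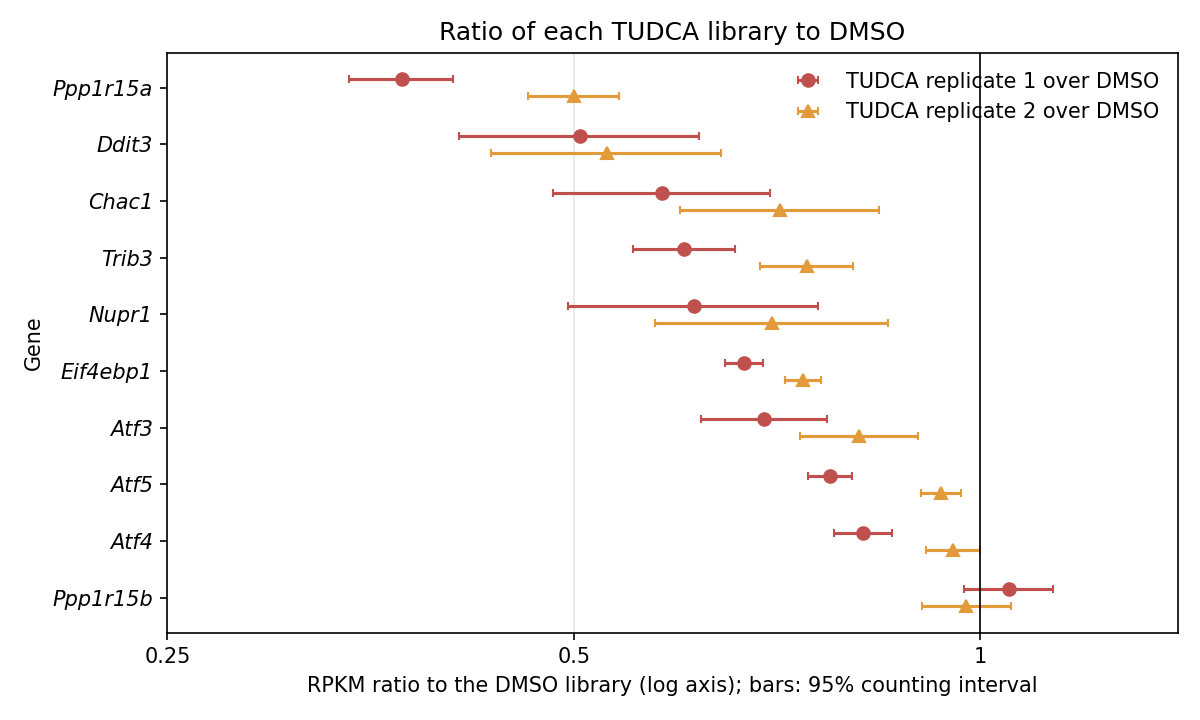
Ratio of RPKM in TUDCA replicate 1 (circles) and TUDCA replicate 2 (triangles) to the DMSO library, on a log axis (horizontal), for each of the 10 genes (vertical), with bars for the 95% counting interval. The genes run from Ppp1r15a, at 0.373 and 0.500, to Ppp1r15b, whose bars cross 1.

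The TUDCA libraries also differed from each other in a shared way. TUDCA replicate 1 was the lowest and DMSO the highest library for 9 of the 10 genes, an order found for 18.3% of all genes tested. The counting interval of the ratio between the TUDCA libraries excluded 1 for 7 of the 10 genes, with Ddit3, Nupr1 and Ppp1r15b as exceptions. The share of all genes tested for which it did so was not computed, so this count cannot be set against other genes. Genes of the ATF6 and XBP1 branches of the unfolded protein response, which supply ER chaperones and degradation factors, showed the opposite order. Of 22 such genes 18 lay below DMSO in both TUDCA libraries, and 16 of these were lowest in TUDCA replicate 2, against 12.0% of all genes tested. Hspa5, the ER chaperone BiP, had 788 and 581 RPKM in TUDCA replicates 1 and 2, against 1807 RPKM in DMSO. Both patterns were noticed in these data, and with 1 library on each side the difference between the TUDCA libraries has no replicate check.

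Base composition moved with this difference. Across 11149 genes with a transcript in GENCODE M21 the log2 difference of TUDCA replicate 1 from replicate 2 had a Spearman correlation of -0.58 with the GC share, as a description over genes of the same libraries. The median GC share of the 10 genes was 55.5%, against 50.2% for the ATF6 and XBP1 genes and 50.8% for all genes tested. Among the 10 it ran from 47.5% in Ppp1r15b to 61.7% in Atf5. Relative to the median of genes of like GC content, in 10 equal bins, the 10 genes differed between the TUDCA libraries by a median of -0.10 on the log2 scale, in place of -0.22. For the ATF6 and XBP1 genes the same step gave 0.13 in place of 0.21. On this footing both TUDCA libraries lay below DMSO for all 10 genes, Ppp1r15b by only -0.05 in each, against 38.2% of genes with a GC share. Relative to the same bins, TUDCA replicate 1 lay above replicate 2 for Ddit3 alone (0.06), while Ppp1r15b stood at -0.02. After correction of the TUDCA libraries for GC content against DMSO, TUDCA replicate 1 was lowest and DMSO highest for 9 of the 10 genes. TUDCA replicate 2 was lowest and DMSO highest for 1 of the 10 and for 19 of the 22. Over all 11149 genes these orders held for 1979 and 1939. The same correction gave a median log2 difference of -0.51 against DMSO for the 10 genes and limma adjusted p = 0.0110 for Ppp1r15a and 0.0203 for Ddit3.

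**Figure D3:**
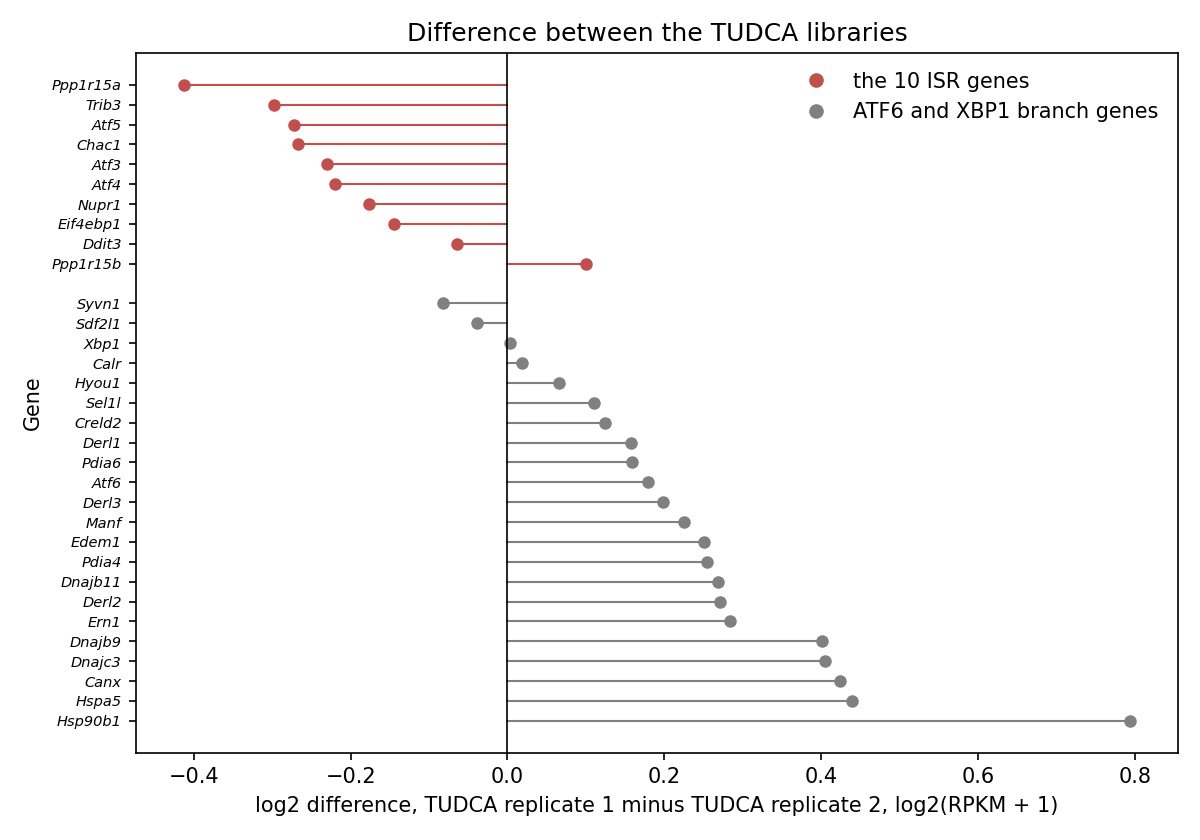
Difference of TUDCA replicate 1 minus TUDCA replicate 2 on the log2(RPKM + 1) scale (horizontal) for the 10 integrated stress response genes (red, above) and 22 genes of the ATF6 and XBP1 branches (grey, below), 1 point per gene. Red points run from -0.41 for Ppp1r15a to 0.10 for Ppp1r15b, and 20 of the 22 grey points lie above 0, up to 0.79 for Hsp90b1.

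Other targets of ATF4 and CHOP were called in both directions. Of 36 listed genes 33 were tested, 1 was called lower and 1 higher, against 0.876% and 1.77% of all genes tested, and 31 were not called. Their median log2 difference was -0.32, against 0.04 over all genes. Both TUDCA libraries lay below DMSO for 21 of the 33 and above it for 2, against 30.4% and 40.5% of all genes tested. Herpud1, a factor of ER-associated degradation, was the gene called lower, with 80.1 and 87.8 RPKM in the TUDCA libraries and 138 RPKM in DMSO (limma adjusted p = 0.0352). That call was lost without the filter and with quantile normalization, median centring, no variance trend and voom (adjusted p = 0.530, 0.124, 0.0628, 0.221 and 0.0535).

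Gpt2, the mitochondrial alanine aminotransferase, went against the list. It had 283 and 219 RPKM with TUDCA, against 110 RPKM in DMSO, a log2 difference of 1.17 ± 0.20 (limma adjusted p = 2.01e-06). The 4 further genes named from this list did not pass. The transporter Slc7a5, of large neutral amino acids, had 9.77 and 14.0 RPKM with TUDCA and 20.8 RPKM in DMSO (limma adjusted p = 0.0968), and it was called with voom and after correction for gene length (adjusted p = 0.0417 and 0.0379). Asparagine synthetase, Asns, had 108 and 129 RPKM with TUDCA and 170.5 RPKM in DMSO, and the serine phosphatase Psph had 36.1 and 40.6 RPKM with TUDCA and 60.8 RPKM in DMSO (limma adjusted p = 0.205 and 0.111). The proline enzyme Pycr1 was scarce, with 2.59 and 1.91 RPKM with TUDCA and 3.59 RPKM in DMSO.

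The genes that set the signal were called about as rarely as other genes. Of 21 genes for eIF2 kinases, eIF2, its exchange factor eIF2B, phosphatase subunits and their helpers, 0 were called by limma, against 2.65% of all genes tested, with 1 at an unadjusted p under 0.05 (lower) and a median log2 difference of -0.04. The ER kinase PERK, Eif2ak3, had 13.2 and 9.22 RPKM with TUDCA and 8.78 RPKM in DMSO (limma adjusted p = 0.820). The RNA-sensing kinase PKR, Eif2ak2, had 31.4 and 20.9 RPKM with TUDCA and 20.7 RPKM in DMSO (limma adjusted p = 0.780). In both kinases TUDCA replicate 1 stood apart while replicate 2 lay near DMSO. The eIF2B subunit Eif2b2 had 122 and 143 RPKM with TUDCA and 182 RPKM in DMSO, and the adaptor Nck1 had 7.46 and 6.69 RPKM with TUDCA and 5.06 RPKM in DMSO, and neither passed, at limma adjusted p = 0.324 and 0.706. This speaks of mRNA only, since the kinases act by phosphorylation.

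Relatives of the 10 genes followed no common direction. Of 3 paralogs tested 0 were called by limma, with 1 at an unadjusted p under 0.05, Trib1 (higher). Trib1, a paralog of Trib3, had 37.4 and 40.0 RPKM with TUDCA and 25.9 RPKM in DMSO (limma adjusted p = 0.269). Eif4ebp2 had 88.0 and 88.4 RPKM with TUDCA and 97.8 RPKM in DMSO, and Chac2 had 5.71 and 4.05 RPKM with TUDCA and 5.01 RPKM in DMSO. Of 33 bZIP partners and relatives tested, 0 were called lower by limma (3 at an unadjusted p under 0.05) and 3 higher, with a median of -0.02, against 0.876% and 1.77% of all genes tested. Those 3 were Cebpd (73.2 and 104 RPKM with TUDCA, 45.1 RPKM in DMSO), Nfe2l2 (140.3 and 149 RPKM with TUDCA, 80.4 RPKM in DMSO) and Fos (7.04 and 5.89 RPKM with TUDCA, 2.55 RPKM in DMSO), the last on 75 and 68 reads with TUDCA and 30 in DMSO. Cebpd encodes a C/EBP protein and Nfe2l2 the antioxidant factor NRF2. Among those not called, Fosl1 had 12.1 and 12.9 RPKM with TUDCA and 22.8 RPKM in DMSO (limma adjusted p = 0.0612).

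Of 18 genes of mTORC1 and cap binding, the machinery that 4E-BP1 acts on, 0 were called by limma, against 2.65% of all genes tested, with 2 lower and 1 higher at an unadjusted p under 0.05. Their median log2 difference was 0.07. Akt1s1, an inhibitor of mTORC1, had 122 and 151 RPKM with TUDCA and 205 RPKM in DMSO, and Deptor, also an inhibitor of mTORC1, had 17.3 and 11.0 RPKM with TUDCA and 7.54 RPKM in DMSO (limma adjusted p = 0.106 and 0.100). Among 19 immediate-early genes, which like Atf3 respond within minutes to many stimuli, Fos was called higher and 18 were not called. Of these genes 0 were called lower (2 at an unadjusted p under 0.05 by limma). Over all genes tested 1.77% were called higher and 0.876% lower. Of 22 ATF6 and XBP1 genes 9 were called lower and 0 higher (1 at an unadjusted p under 0.05 by limma), against 0.876% and 1.77% of all genes tested, with a median of -0.51. Creld2 had the lowest of these differences, with 53.3 and 48.8 RPKM with TUDCA and 172 RPKM in DMSO.

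**Figure D4:**
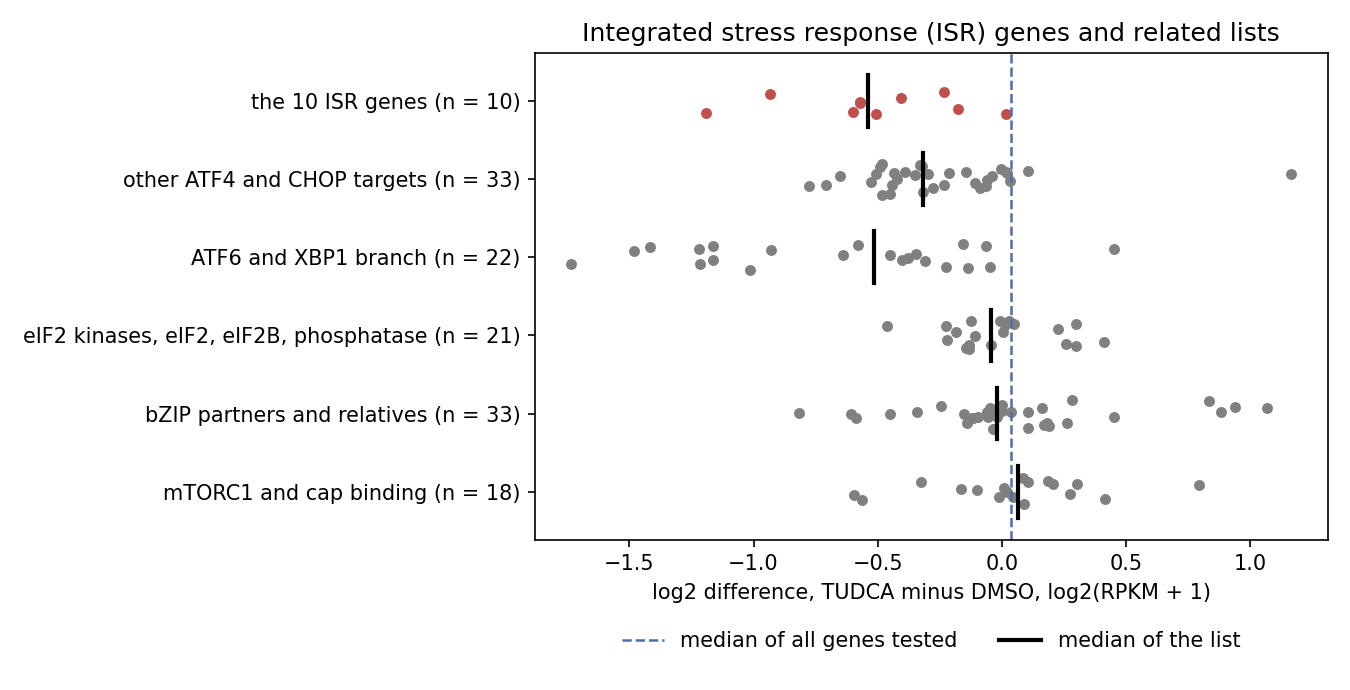
Log2 difference of TUDCA minus DMSO on the log2(RPKM + 1) scale (horizontal) for each tested gene of 6 lists (vertical), with a black bar at each list's median and a dashed line at the median of all 11300 genes tested. Medians lie at -0.54 for the 10 integrated stress response genes (red), -0.32 for other ATF4 and CHOP targets and -0.51 for the ATF6 and XBP1 branches, while the other 3 lists lie between -0.04 and 0.07.

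By the pair of log2 differences from DMSO, the genes most like Ddit3 among those tested were Ggct, Hyal1, Tmem189, Insc and Slc13a5, at Euclidean distances of 0.036 to 0.082 over these 3 libraries. Ggct, a gamma-glutamylcyclotransferase, was the nearest, with 6.03 and 6.10 RPKM with TUDCA and 12.5 RPKM in DMSO. It rested on few reads, 52 and 57 with TUDCA and 119 in DMSO. The other 9 integrated stress response genes were not among these 5, which says little, since only 5 of the 11300 genes tested are listed.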

How the data were processed

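RNA was measured in 2 TUDCA libraries and 1 DMSO library of primary mouse hepatocytes. Per the labels' protocols, oligo(dT) beads took up the mRNA, and cDNA made with random primers was nebulised. The authors deposited RPKM values, 1 table per library. HTSeq, Bowtie2, TopHat2 2.0.7 and CASAVA appear in the submitters' processing notes, with no roles. For build, annotation and strand setting, what applied was not given in the sources used here. Overlapping antisense genes thus cannot be told apart. Symbols came from GENCODE M21 by identifier (32897 of 37620, all 10 genes included).

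Library totals and smallest whole reads (within 1e-07 reads, for all 19146 genes above 0) were recovered from the steps of the RPKM values. Those reads add up to 95.7 to 95.8% of the totals. RPKM were tested as log2(RPKM + 1), which understates folds of low genes, with limma 3.58.1 in R 4.3.3 (variance trend, Benjamini-Hochberg adjustment over 11300 genes). The prior degrees of freedom were infinite, so each gene took the pooled SD of its level (0.159 to 0.265). Intervals used scipy 1.17.1. The fit was tested on simulated data, where it found most changes of the larger size but called more unchanged genes than a 0.05 threshold allows, mostly genes of few reads. Counts over all genes may thus be too high: 85 of the 299 genes called averaged under 100 reads. A filter at a mean of 100 reads was therefore added. Tried in its place, one at a time, were voom on whole reads, a lower pseudocount (0.1), dropping the filter or raising it to 5 RPKM, TPM, quantile normalization, median centring, no variance trend, robust estimation, corrections for gene length and GC content, and leaving out each TUDCA library.

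Members, lists, motifs and tests were chosen with earlier results of these data known. Of 222 list entries 220 matched. From each list the called genes and up to 4 further genes with the largest differences were eligible to be named. The GC correction, the filter on reads and the order of the TUDCA libraries were added after seeing the data. GC shares are medians over GENCODE M21 transcripts.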

Additional observations from a re-analysis of the deposited data

How the results depend on the processing

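Ppp1r15a and Ddit3 were called lower in 11 of 12 alternative settings with a test, the exception being no filter, where 0 of the 10 genes and 0 genes of all were called. Over those settings their log2 differences ran from -1.27 to -1.14 and from -1.01 to -0.88, and their adjusted p from 2.90e-06 to 0.560 and from 0.00237 to 0.502. Eif4ebp1 was called with quantile normalization alone, and the other members were not called in any setting. Ppp1r15b reversed with quantile normalization (-0.0018), median centring (-0.057), gene length (-0.038) and GC correction (-0.046), and the cause was not tested. Over all genes, 299 were called in the reported fit, 0 without the filter and 188 after GC correction. Prior degrees of freedom were finite without the filter (1.11), after GC correction (7.73) and with quantile normalization (34.5). With robust estimation they were as low as 8.7e-16. Other targets called lower came to 0 without the filter, with quantile normalization, median centring and no variance trend, and to 2 after length correction, and the 1 called higher became 0 without the filter. Genes past 2-fold in both libraries, 119, became 225 with a pseudocount of 0.1 and 237 with voom on whole reads, and 79 among the 8602 genes with a mean of 100 reads, where 209 genes were called. That filter was chosen after seeing the data. Leaving out 1 TUDCA library leaves no test. Past 2-fold in the remaining library were 188 to 284 genes, and the members' median log2 difference was -0.62 to -0.43. Without the DMSO library nothing can be compared. No paired analysis was possible because there is 1 DMSO library and its label has no replicate number.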

Other observations

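The ER stress element, searched as above in the 250 bases before RefSeq starts, was absent from the 8 promoters of integrated stress response genes. Only 0.113% of the promoters searched hold it, so its absence from 8 says little. The element was present for 14 genes tested, of which 5 (35.7%) were called lower by limma, with a median log2 difference of -0.49. For 8676 genes without it the median was 0.04, and 55 (0.634%) were called lower. Over the same window 261 tested genes held the CRE found before Ppp1r15a, with a median of 0.03 and 3 called lower (1.15%), against 57 (0.676%) of 8429 genes without it.

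Across GC bins the median of TUDCA replicate 1 minus DMSO was 0.30 in the poorest of 10 bins and -0.16 in the richest, while that of TUDCA replicate 2 stayed between -0.02 and 0.05.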
